A study of Mus musculus with 14 samples.

Results

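The genes examined here were the clustered histone genes, taken as every gene of the count table whose name begins with Hist, a cluster number and h. There were 70 such genes among 54532 in the table: 6 for the linker histone H1, 20 for H2A, 19 for H2B, 12 for H3 and 13 for H4. They lay in 4 groups in GRCm38/mm10, with 56 Hist1 genes on chromosome 13, 10 Hist2 genes on chromosome 3, 3 Hist3 genes on chromosome 11 and 1 Hist4 gene on chromosome 6. Counts had come from P0 (postnatal day 0) islets of C57BL/6JRj mice, which spent 1 day in culture at 11 mM glucose with 10% fetal bovine serum. One group received 10 µM adjudin, a small molecule derived from indazole, and the other the solvent DMSO. No genetic modification is given in the labels. Each group had 7 libraries, each pooled from several pups, and an Adjudin and a DMSO library of the same replicate number came from 1 batch and form a pair. The comparison asks whether histone mRNA levels differ in newborn islets after adjudin.

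Core histones H2A, H2B, H3 and H4 form the protein spool of the nucleosome, and H1 binds the DNA between nucleosomes. Cells make most of this protein while they copy their DNA, from many near-identical genes without introns that are switched on together. The mRNAs of these genes end in a short stem-loop in place of the poly(A) tail of other mRNAs, and the stem-loop binding protein that recognises it governs their processing and decay. Some of the same genes can also give poly(A)-tailed mRNAs that run past the stem-loop, mainly in cells that have stopped dividing. The libraries here were made from RNA captured on poly-T beads, which hold poly(A) tails, so the levels below are those of histone RNA that passed this selection.

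DMSO replicate 7 was sequenced to 108865228 counts and the 13 other libraries to 26475749 to 36900026. Levels are given as CPM, the count scaled to its library total, and a single count was worth 0.00919 CPM in the deepest and 0.0378 CPM in the shallowest library. The 7 beta cell markers, insulin genes included, summed to 1309 to 16732 CPM in Adjudin libraries. Their sum was 4878 to 17940 CPM in 6 DMSO libraries and 26.6 CPM in DMSO replicate 5. The sum is mostly Ins1, Ins2 and Iapp, which encode the secreted hormones of the beta cell: Ins2 was at 2.27 CPM in DMSO replicate 5 against a median of 5693 CPM in the 6 other DMSO libraries. Pdx1, a transcription factor of beta cells, was at 3.44 CPM there against a median of 10.1 CPM, and Slc2a2, their glucose transporter, at 3.18 against 32.9 CPM. Counts of calls, the all-gene, H1 and H2B sums, and the fits of Hist1h1c, Hist1h2bc and Hist4h4 are also given without this library or its pair.

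The stem-loop was looked up to see which annotated transcripts end there and which run past it. A 16-base motif, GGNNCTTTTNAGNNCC in the sense strand (N is any base), was present in the 3′ UTR of 44 of the 54 coding histone genes with an annotated 3′ UTR (81.5%). Of 21135 other coding genes with a 3′ UTR, 17 held it (0.0804%), among them H2afx, which encodes the variant H2A.X. The sites of 8 genes on which the results below turn are shown 5′ to 3′ on the sense strand, with the motif in capitals and 5 flanking bases on each side. Each lies in the 3′ UTR of a single-exon gene model, in GRCm38:
Hist1h1c (chr13:23739507-23739532, + strand): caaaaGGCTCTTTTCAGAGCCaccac
Hist1h1d (chr13:23555782-23555807, + strand): caaacGGCTCTTTTCAGAGCCaccca
Hist1h2ab (chr13:23751567-23751592, + strand): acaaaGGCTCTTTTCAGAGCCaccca
Hist1h2ad (chr13:23574890-23574915, + strand): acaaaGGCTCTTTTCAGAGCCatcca
Hist3h2ba (chr11:58949344-58949369, + strand): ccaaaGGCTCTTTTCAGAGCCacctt
Hist1h3c (chr13:23745042-23745067, - strand): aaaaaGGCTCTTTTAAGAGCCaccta
Hist1h4i (chr13:22040961-22040986, - strand): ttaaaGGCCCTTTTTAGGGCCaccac
Hist4h4 (chr6:136803993-136804018, - strand): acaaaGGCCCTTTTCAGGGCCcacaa
The 16 bases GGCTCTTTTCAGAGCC, as in Hist1h1c, occurred in 26 genes, and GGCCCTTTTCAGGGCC, as in Hist4h4, in 7. In 22 genes the annotated transcript ran at least 100 bases past the motif, as in Hist1h1c with 840 bases and Hist1h1d with 4884. In the other 22 it stopped within 100 bases, as in Hist1h2ab with 11 bases and Hist1h3c with 74. A further 13 gene models ended with the coding sequence, 10 had a 3′ UTR without the motif, and 3 were pseudogenes or non-coding. Of the 10, Hist1h2af and Hist1h2ah had UTRs of 1 and 2 bases, shorter than the motif. The transcripts used for Hist1h2bq and Hist1h2br were 3-exon models annotated for nonsense-mediated decay. No match says only that these letters are not in the annotated UTR.

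Histone RNA was scarce in these libraries and was carried by a few genes. All 70 genes together held 68550 counts, 0.0135% of all counts. Hist1h1c, a linker histone gene, held 35.1% of them, and the 6 most abundant genes (Hist1h1c, Hist1h2bc, Hist1h4i, Hist3h2ba, Hist2h2be and Hist3h2a) held 76.6%. At least 1 count was found for 62 genes, and 8 had 0 in all 14 libraries, namely Hist1h4b, Hist2h2aa1, Hist2h2aa2, Hist2h3c1, Hist2h3b, Hist2h2bb, Hist1h2ba and Hist1h2aa. Of these 8, 6 share at least 1 stretch of 150 bases, the read length, with another of the 70 genes, so a count of 0 cannot be read as absence of the mRNA. In all, 21 genes share at least 50% of their 150-base stretches with another histone gene, and 19 share none. An overlap with another annotated gene was present for 26 genes, in most H2A genes with a gene on the opposite strand.

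The 22 genes annotated past the stem-loop held 62.3% of the histone counts, and the 10 with a UTR lacking the motif held 27.0%, nearly all of it from Hist1h2bc and Hist2h2be, whose 3′ UTRs were 742 and 2192 bases long. The 22 genes that stop near the stem-loop held 7.35% and the 13 with a coding-only model 3.13%. The median level was 0.974 CPM in genes annotated past the stem-loop and 0.294 CPM in genes that stop near it. Scaled by exon length, which counts the bases past the stem-loop, these medians were closer, at 0.822 and 0.640 CPM per kb. Hist1h1c had 31.4, Hist1h2bc 24.8, Hist1h4i 11.8 and Hist3h2ba 11.1 CPM per kb, while the median over all 18732 genes tested was 4.32. Whether counts beyond the motif came from poly(A)-tailed mRNA was not tested, since the table gives 1 value per gene.

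**Figure D1:**
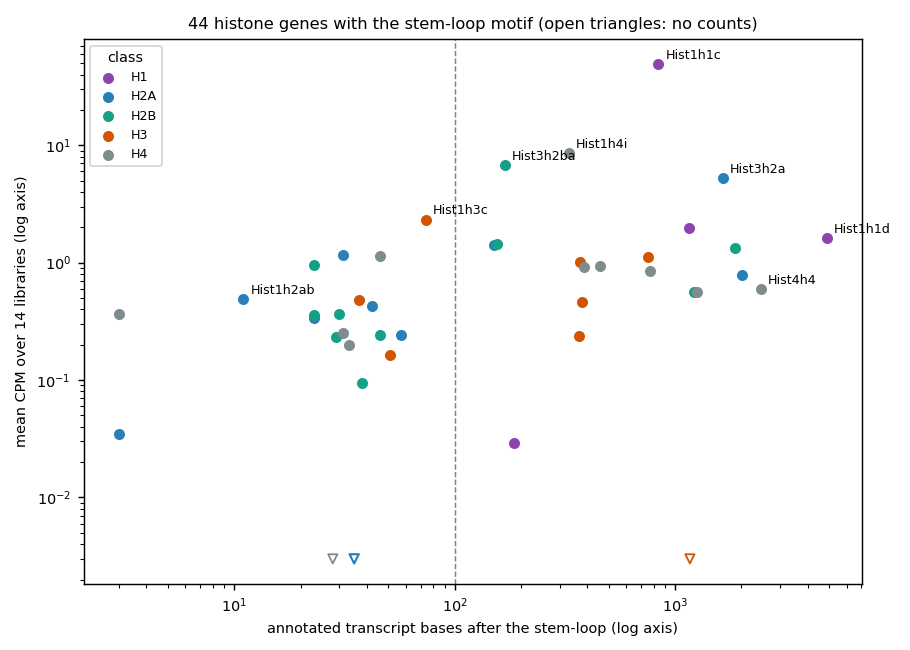
Mean level over 14 libraries (CPM, log axis) against the annotated transcript bases after the stem-loop (log axis) for the 44 genes with the motif, coloured by histone class; open triangles at the bottom mark genes with no counts, and the dashed line stands at 100 bases. The labelled genes Hist1h1c, Hist1h4i, Hist3h2ba and Hist3h2a, all annotated past 100 bases, were the 4 highest.

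Of the 70 genes, 39 passed the filter on low counts and were tested, with mean levels of 0.337 to 49.1 CPM; the 31 others had at most 0.264 CPM. By edgeR's quasi-likelihood F test, adjusted over all genes after Benjamini and Hochberg, 0 of the 39 had an adjusted p under 0.05, where 0.00534% of all genes tested did. At an unadjusted p under 0.05, 3 were higher with adjudin (Hist1h1c, Hist1h1d and Hist1h2bc), where 1.25% of all genes were, and 3 were lower (Hist1h2ab, Hist1h1b and Hist4h4), where 1.01% of all genes were. With the replicate number as a block, 0 had an adjusted p under 0.05 (0% of all genes), the unadjusted p was under 0.05 for 4 on the higher side (Hist1h2ad was the fourth), where 3.25% of all genes were, and for 2 on the lower side (Hist1h2ab and Hist4h4), where 2.38% were. Log2 fold changes were positive in 18 and negative in 21, with a median of −0.06, beside 45.3% positive and a median of −0.01 over all genes tested. Without DMSO replicate 5 they were positive in 15 and negative in 24, with a median of −0.135. Without pair 5, where 38 were tested, they were positive in 17 and negative in 21, with a median of −0.0721. In no gene were the Adjudin and DMSO libraries free of overlap, a separation that 0.0107% of all genes showed in each direction. The 3 unadjusted calls on the higher side depended on single libraries: 0 were left without Adjudin replicate 2, Adjudin replicate 3, DMSO replicate 6, pair 3 or pair 6, and 1 without Adjudin replicate 4, DMSO replicate 5, pair 2 or pair 4. On the lower side 1 was left without Adjudin replicate 4, DMSO replicate 3, pair 3 or pair 4. With the block and without pair 5, 0 had an adjusted p under 0.05 (0% of all genes), 4 were higher (4.34% of all genes) and 2 lower (2.31%) at an unadjusted p under 0.05. DESeq2, run on the 62 genes with at least 1 count, gave 0 at an adjusted p under 0.05 (0.00789% of all genes), 3 higher (1.15%) and 3 lower (1.02%) at an unadjusted p under 0.05, with Hist1h2bl, a gene below the edgeR filter, in place of Hist1h1b. With the block, DESeq2 gave 0 (0.292% of all genes), 3 higher (2.24%) and 3 lower (1.43%). Limma-voom, run without the block, gave 0 (0% of all genes), 1 higher (1.44%) and 4 lower (1.11%).

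**Figure D2:**
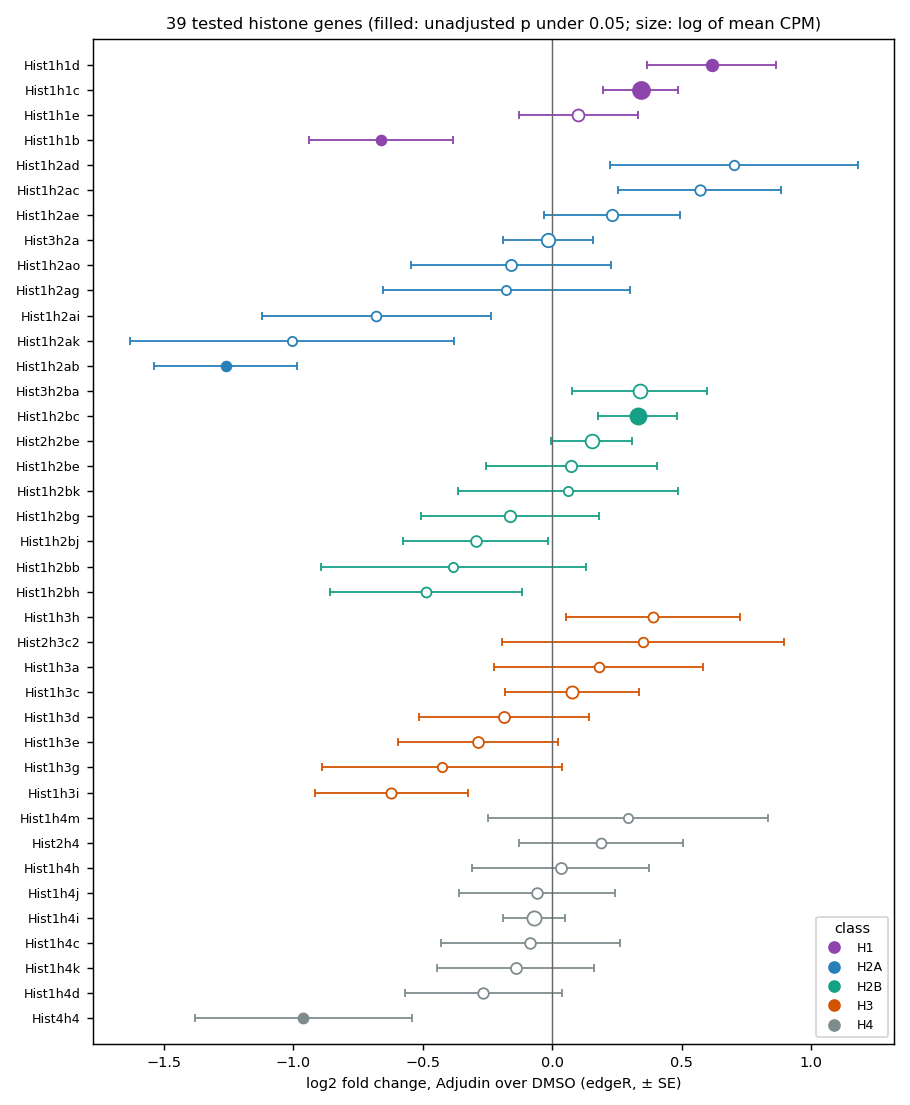
Log2 fold change of Adjudin over DMSO with its SE (edgeR) for the 39 tested genes, grouped and coloured by histone class; filled circles have an unadjusted p under 0.05 and larger circles a higher mean CPM. The abundant Hist1h1c and Hist1h2bc lay at 0.34 and 0.33, while the strongest negative value, −1.26, belonged to Hist1h2ab, a gene below 1 CPM in every library.

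Summed over all 70 genes, the level was 145.8 ± 25.6 CPM with adjudin and 126.0 ± 15.5 CPM with DMSO (SD, n = 7 each), and it was higher with adjudin in 6 of 7 pairs. The ranges overlapped, at 118.0 to 177.1 CPM in Adjudin and 103.0 to 141.0 CPM in DMSO libraries. Adjudin replicates 2, 3 and 4, at 174.0, 177.1 and 166.1 CPM, were the only Adjudin libraries above every DMSO library. In bulk RNA, more cells of a type and more RNA per cell cannot be told apart. The difference was carried by H1, with 59.8 ± 15.1 against 47.1 ± 5.87 CPM, and by H2B, with 52.4 ± 10.1 against 43.7 ± 7.95 CPM. The other classes had close means: H2A summed to 11.1 ± 1.42 CPM with adjudin and 11.4 ± 1.61 CPM with DMSO. H3 summed to 7.28 ± 0.683 CPM with adjudin and 7.62 ± 1.48 CPM with DMSO, and H4 to 15.3 ± 1.43 CPM with adjudin and 16.1 ± 3.02 CPM with DMSO. Without the 6 most abundant genes, a choice made after the data were seen, the remaining 64 summed to 30.6 ± 3.13 CPM with adjudin and 32.0 ± 6.91 CPM with DMSO, and the sum was higher with adjudin in 3 of 7 pairs. Without pair 5, also a choice made after the data were seen, all 70 genes summed to 150.4 ± 24.6 CPM with adjudin and 129.8 ± 12.8 CPM with DMSO (SD, n = 6 each), higher with adjudin in 5 of 6 pairs. H1 then summed to 62.5 ± 14.6 CPM with adjudin and 48.7 ± 4.32 CPM with DMSO, and H2B to 54.1 ± 9.90 CPM with adjudin and 44.9 ± 8.05 CPM with DMSO. No test was run on these sums.

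Summed markers of other pancreatic cells had different means in the groups, which were not tested. Those of acinar cells, which make digestive enzymes, summed to 124 ± 85.5 CPM with adjudin and 53.6 ± 96.1 CPM with DMSO, higher with adjudin in 6 of 7 pairs. The acinar ranges overlapped through DMSO replicate 3 alone, at 271 CPM. The other DMSO libraries had 11.2 to 27.5 CPM and the Adjudin libraries 31.9 to 270 CPM, with group medians of 20.1 CPM for DMSO and 105 CPM for adjudin. Ductal markers summed to 986 ± 382 CPM with adjudin and 740 ± 357 CPM with DMSO, and delta cell markers to 237 ± 122 CPM with adjudin and 191 ± 75.3 CPM with DMSO, each higher in 6 of 7 pairs. Alpha cell markers summed to 927 ± 787 CPM with adjudin and 656 ± 590 CPM with DMSO, higher in 4 of 7 pairs, and mesenchymal markers to 22336 ± 5650 CPM with adjudin and 24482 ± 7026 CPM with DMSO, higher in 2 of 7. Alpha and delta sums, like those of the histone genes, were highest among Adjudin libraries in replicates 2, 3 and 4. All these ranges overlapped, and the part of these cells in the histone difference was not tested.

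**Figure D3:**
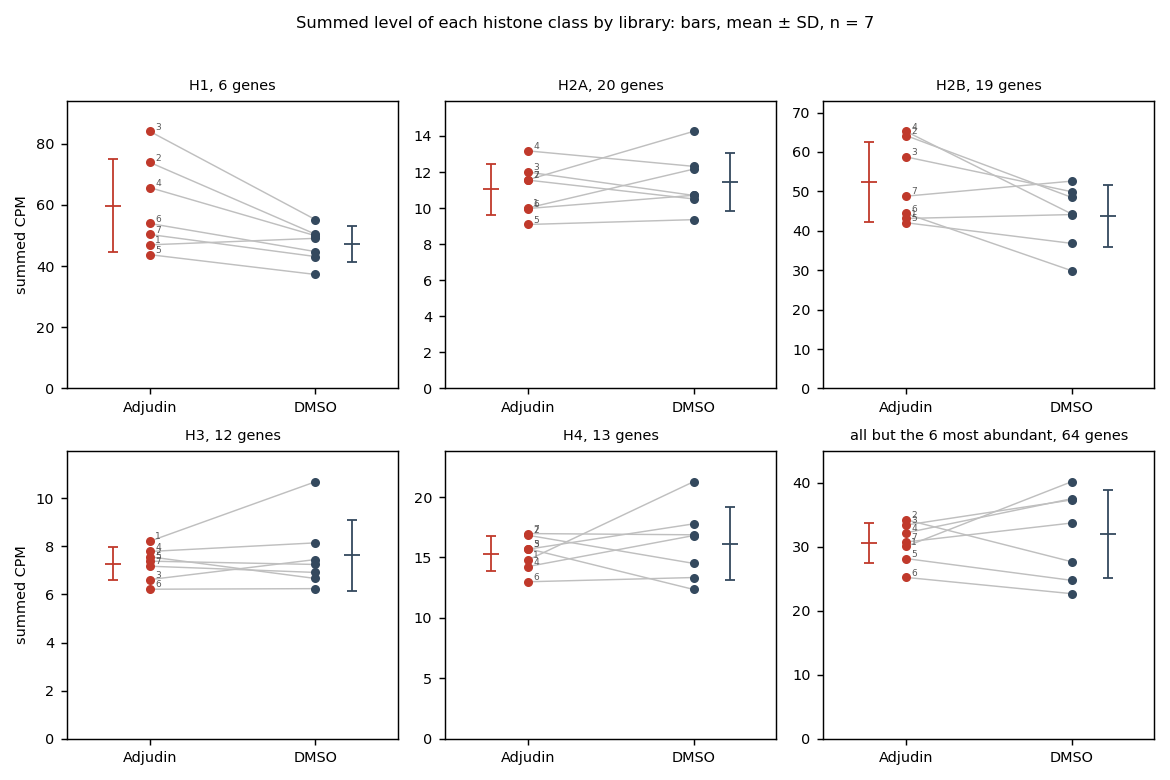
Summed CPM of each histone class, and of all genes but the 6 most abundant, in the 7 Adjudin and 7 DMSO libraries; dots are libraries numbered by replicate, grey lines join pairs, and bars give mean ± SD. The H1 and H2B sums were higher with adjudin in 6 and 5 of 7 pairs, with overlapping ranges.

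Among linker histones, Hist1h1c (ENSMUSG00000036181, chromosome 13, 23738808 to 23740367) encodes one of the H1 subtypes found in most tissues. Its level ranged over 40.6, 49.5 and 77.3 CPM (lowest, median, highest) in Adjudin libraries, against 33.8, 44.7 and 50.2 CPM in DMSO libraries. Adjudin replicates 2, 3 and 4 lay above all DMSO libraries, and the other 4 Adjudin libraries lay within their range. The gene was higher with adjudin in 6 of 7 pairs, with means of 55.1 ± 14.2 and 43.0 ± 5.28 CPM (SD) in Adjudin and DMSO libraries and a log2 fold change of 0.34 ± 0.15 (SE), an unadjusted p of 0.0335 and an adjusted p of 1.00 by edgeR. With the block the log2 fold change by edgeR was 0.31 ± 0.09 and the unadjusted p was 0.00484 (adjusted p 0.729). With the block and without pair 5 the log2 fold change was 0.32 with an unadjusted p of 0.00805. Over all 32 settings the unadjusted p of Hist1h1c lay between 0.00119 and 0.0873. Its lowest adjusted p was 0.12, by DESeq2 with the block. Beta cell marker sums were also highest in replicates 2, 3 and 4 of both groups, at 16120, 16732 and 11767 CPM with adjudin and 17940, 15554 and 10962 CPM with DMSO, and their part in the Hist1h1c difference was not tested.

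Hist1h1d (ENSMUSG00000052565, chromosome 13, 23553262 to 23560686), another H1 subtype, had 1.24, 1.85 and 2.87 CPM in Adjudin libraries (lowest, median, highest), against 0.642, 1.25 and 1.84 CPM in DMSO libraries. It was higher with adjudin in 6 of 7 pairs, and 4 of 7 Adjudin libraries lay above the highest DMSO value. Its log2 fold change of 0.62 ± 0.25 had an unadjusted p of 0.0258 (adjusted p 1.00, edgeR), the smallest on the higher side without the block. With the block its unadjusted p by edgeR was 0.0191. Hist1h1b (ENSMUSG00000058773, chromosome 13, 21779883 to 21780625), an H1 subtype typical of dividing cells whose model ends with the coding sequence, went the other way. It had 0.253, 0.434 and 0.496 CPM with adjudin, against 0.358, 0.642 and 0.937 CPM with DMSO. In 6 of 7 pairs it was lower with adjudin, and its log2 fold change was −0.66 ± 0.28, with an unadjusted p of 0.0304 by edgeR, or 0.0511 with the block. The tested H1 gene Hist1h1e had a log2 fold change of 0.10 ± 0.23, and Hist1h1a and the testis-specific Hist1h1t were below the filter, at 0.209 and 0.0442 CPM with adjudin and 0.318 and 0.0136 CPM with DMSO.

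Among H2A genes, Hist1h2ab had the smallest p of all histone genes by edgeR without the block, and the third smallest of all 18732 genes tested. The gene (ENSMUSG00000061615, chromosome 13, 23751126 to 23751598) had 0.194, 0.260 and 0.477 CPM in Adjudin libraries, against 0.403, 0.776 and 0.900 CPM in DMSO libraries. It was lower with adjudin in 6 of 7 pairs, and in pair 2 the Adjudin library had 0.477 CPM against 0.403 CPM in the DMSO library. Means were 0.291 ± 0.0954 and 0.689 ± 0.196 CPM in Adjudin and DMSO libraries, the log2 fold change was −1.26 ± 0.28, the unadjusted p was 0.000364 and the adjusted p was 1.00 by edgeR. With the block its unadjusted p was 0.00389 by edgeR. By DESeq2 with the block it was 0.00393, and Hist1h1c and Hist1h2bc had smaller values there. Over all alternatives the unadjusted p of Hist1h2ab lay between 5.72e-05 and 0.0102 and the adjusted p between 0.25 and 1.00. Only 279 counts lay behind it, 45.1% of its 150-base stretches also occur in another histone gene, and it overlaps Gm44484 on the opposite strand, so its counts are uncertain.

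Hist1h2ad, another H2A gene (ENSMUSG00000071478, chromosome 13, 23574381 to 23574952), had 0.194, 0.632 and 0.988 CPM with adjudin, against 0.0341, 0.252 and 0.551 CPM with DMSO. In 6 of 7 pairs it was higher with adjudin. Its log2 fold change was 0.70 ± 0.48 (unadjusted p 0.162 by edgeR), and the block brought the unadjusted p to 0.0472. It shares 59.3% of its 150-base stretches with another histone gene. The most abundant H2A gene, Hist3h2a (ENSMUSG00000078851, chromosome 11, 58954685 to 58956830), had 3.40, 5.37 and 6.81 CPM with adjudin, against 3.58, 5.11 and 6.31 CPM with DMSO. Its groups overlapped almost fully, with means of 5.22 ± 1.17 and 5.22 ± 1.00 CPM in Adjudin and DMSO libraries, and it overlaps Trim17 on the same strand. Of the 9 tested H2A genes, log2 fold changes were positive in 3 and negative in 6, with a median of −0.16.

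Among H2B genes, Hist1h2bc (ENSMUSG00000018102, chromosome 13, 23684199 to 23692908) is a gene of 2 annotated exons with a 3′ UTR that lacks the motif. It had 24.3, 31.7 and 41.8 CPM in Adjudin libraries, against 16.9, 25.5 and 31.0 CPM in DMSO libraries. It was the only tested histone gene that was higher with adjudin in all 7 pairs, which 1.19% of all genes were, and 4 Adjudin libraries lay above every DMSO library. Means were 32.1 ± 6.16 and 25.2 ± 5.14 CPM in Adjudin and DMSO libraries, with a log2 fold change of 0.33 ± 0.15, an unadjusted p of 0.0472 and an adjusted p of 1.00 by edgeR. With the block the unadjusted p by edgeR was 0.00999 (adjusted p 0.745), and with the block and without pair 5 it was 0.00918. Over all 32 settings the unadjusted p of Hist1h2bc lay between 0.0035 and 0.141. Its lowest adjusted p was 0.238, by DESeq2 with the block.

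Hist2h2be (ENSMUSG00000068854, chromosome 3, 96221119 to 96223738), whose long UTR also lacks the motif, had 3.70, 6.90 and 8.63 CPM with adjudin, against 5.33, 6.11 and 6.40 CPM with DMSO. Adjudin replicate 1 was the lowest of all 14 libraries, while 5 Adjudin libraries lay above every DMSO library, and the log2 fold change was 0.15 ± 0.16. Hist3h2ba (chromosome 11, 58948920 to 58949533), named after its values were seen because it is among the 6 most abundant, had 4.53, 6.54 and 11.8 CPM with adjudin, against 3.14, 6.08 and 7.86 CPM with DMSO. Adjudin replicates 2, 3 and 4 lay above every DMSO library here too, as for Hist1h1c and Hist1h2bc, and its log2 fold change was 0.34 ± 0.26 (unadjusted p 0.213, edgeR). Of the 9 tested H2B genes, 5 were positive and 4 negative, with a median of 0.06, which was −0.06 with 3 positive and 6 negative without DMSO replicate 5. Apart from these 3 abundant genes, 2 were positive and 4 negative, with a median of −0.23.

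The most abundant H3 gene, Hist1h3c, had 1.56, 2.11 and 3.62 CPM with adjudin, against 1.501, 1.76 and 4.19 CPM with DMSO. Replicates 1 and 2 held its 2 highest values with adjudin, and replicate 1 its highest with DMSO; the log2 fold change was 0.08 ± 0.26. The 8 tested H3 genes were split, with 4 positive, 4 negative and a median of −0.05 (0.04 without pair 5). The most abundant H4 gene, Hist1h4i, had 7.66, 8.18 and 9.36 CPM with adjudin, against 6.43, 8.56 and 11.3 CPM with DMSO. It was lower with adjudin in 6 of 7 pairs, yet by little, with means of 8.45 ± 0.663 and 8.74 ± 1.44 CPM in Adjudin and DMSO libraries and a log2 fold change of −0.07 ± 0.12 (unadjusted p 0.572, edgeR). Hist4h4 (ENSMUSG00000096010, chromosome 6, 136801553 to 136804415), the lone gene of its cluster, had 0.0931, 0.357 and 0.784 CPM with adjudin, against 0.307, 0.776 and 1.31 CPM with DMSO. The groups overlapped, 5 of 7 pairs were lower with adjudin, and the log2 fold change was −0.96 ± 0.42 (unadjusted p 0.0366 by edgeR, 0.037 with the block, and 0.0779 with the block and without pair 5). The 9 tested H4 genes gave 3 positive and 6 negative values, with a median of −0.07. Without DMSO replicate 5 they gave 2 positive and 7 negative values, with a median of −0.16 (−0.134 without pair 5).

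**Figure D4:**
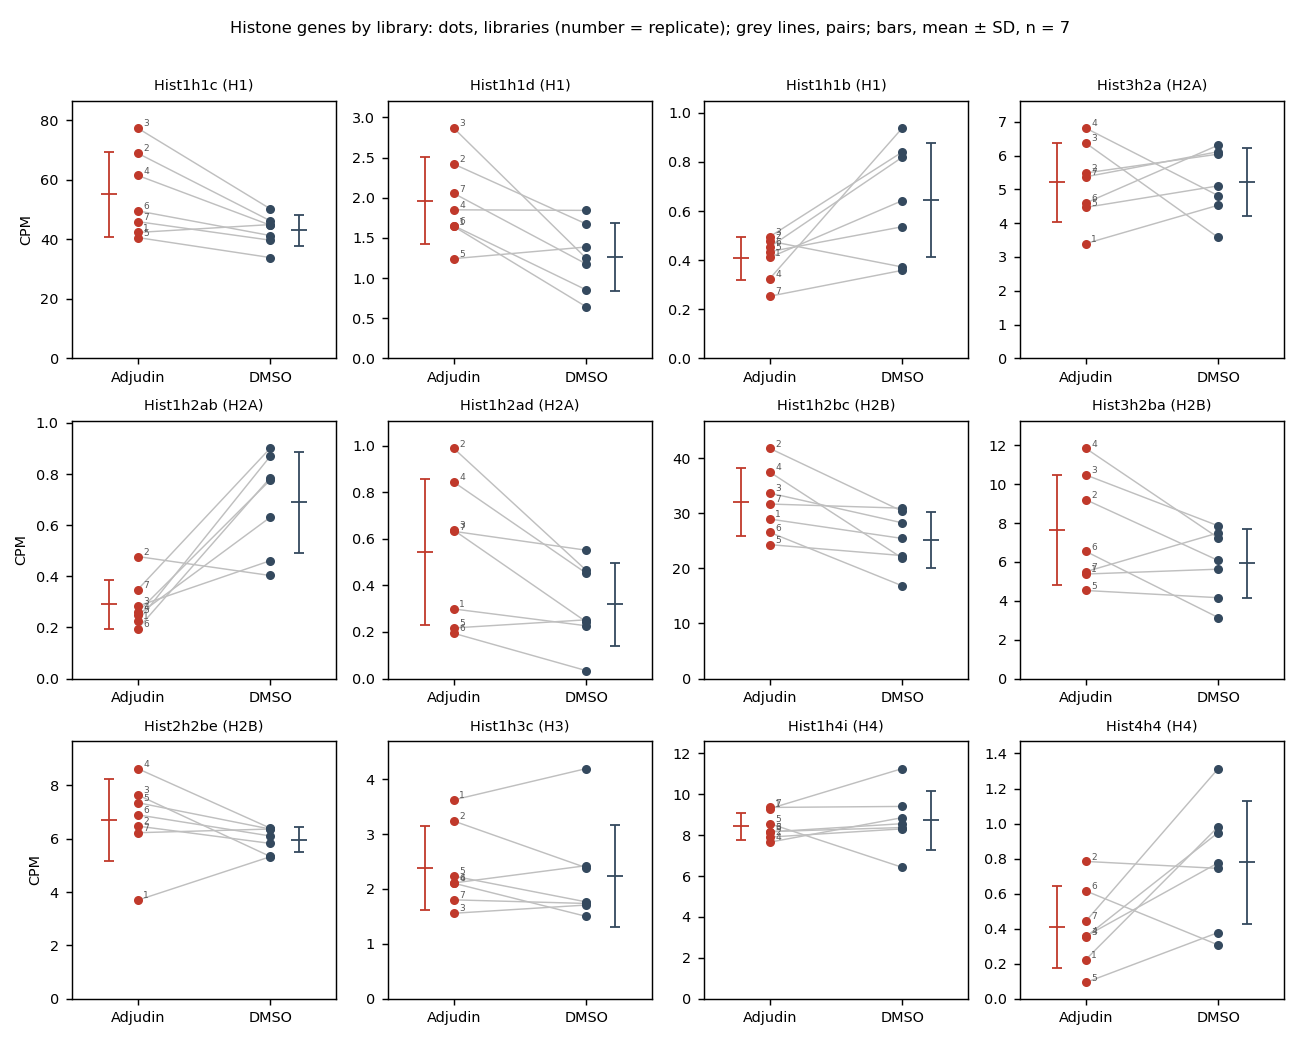
CPM in each library for 12 histone genes ordered by class, each on its own axis from 0; dots are libraries (numbers are replicates), grey lines join pairs, and bars are mean ± SD, n = 7. Hist1h1c, Hist1h2bc and Hist3h2ba shared their 3 highest Adjudin libraries, replicates 2, 3 and 4, and in Hist1h2ab the groups met only at Adjudin replicate 2 and DMSO replicates 2 and 3.

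Within pairs, the number of genes higher with adjudin differed from pair to pair. Of the 39 tested genes, 28 were higher with adjudin in pair 2 and 24 in pair 6, but only 12 in pair 1 and 15 in pair 7. The median within-pair log2 ratio, on a scale of CPM plus 0.1, was 0.34 in pair 2 and −0.41 in pair 1. Across pairs, 5 genes were higher with adjudin in at least 6 of 7 (Hist1h1c, Hist1h1d, Hist1h2ac, Hist1h2ad and Hist1h2bc), where 7.15% of all genes were, and 6 were lower (Hist1h1b, Hist1h2ab, Hist1h2ai, Hist1h2ak, Hist1h3i and Hist1h4i), where 5.11% of all genes were.

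**Figure D5:**
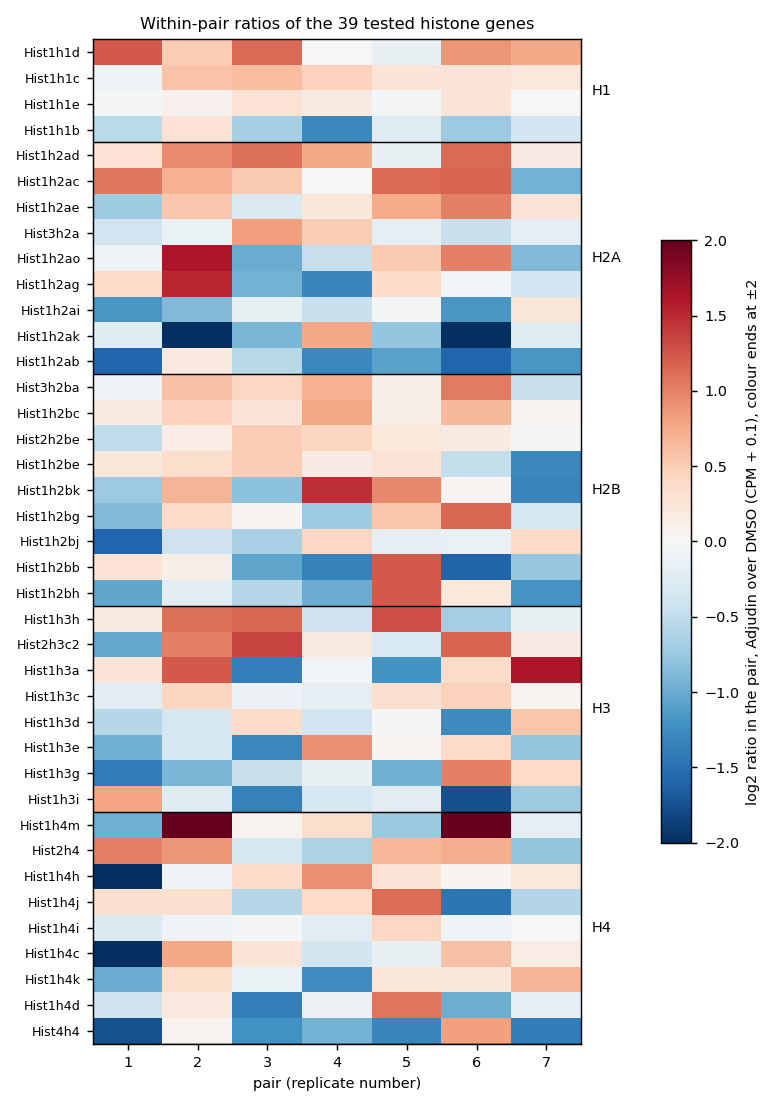
Log2 ratio of Adjudin over DMSO within each pair, on CPM + 0.1, for the 39 tested genes in class order, with red for higher in Adjudin and colours ending at ±2. Hist1h2bc was red in all 7 pairs and Hist1h2ab blue in 6, and every gene but Hist1h2bc had ratios of both signs.

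Split by annotation, 9 of 14 tested genes with an exon length of at least 1000 bases had a log2 fold change above 0 (median 0.13), against 9 of 25 shorter genes (median −0.14). The 18 longer genes summed to 109.7 ± 22.7 CPM with adjudin and 89.4 ± 9.76 CPM with DMSO, and the 52 shorter ones to 36.1 ± 3.60 CPM with adjudin and 36.6 ± 7.14 CPM with DMSO. Most of the difference in the longer genes lay in Hist1h1c and Hist1h2bc. Their means were 55.1 and 32.1 CPM with adjudin, against 43.0 and 25.2 CPM with DMSO. A split by transcript end, made after the data were seen, gave medians of −0.02 for 19 tested genes annotated past the stem-loop, 0.03 for 11 that stop near it and −0.64 for 6 with a coding-only model, of which 5 were negative. Those 6 were Hist1h1b, Hist1h2ai, Hist1h2ak, Hist1h3i, Hist1h3h and Hist1h4k, and none but Hist1h1b had an unadjusted p under 0.05 by edgeR. By limma-voom the unadjusted p was 0.032 for Hist1h2ak, 0.0339 for Hist1h3i and 0.109 for Hist1h1b, where 1.11% of all genes were lower under 0.05. All 13 genes with a coding-only model summed to 3.57 ± 0.759 CPM with adjudin and 4.67 ± 0.887 CPM with DMSO, higher with adjudin in 1 of 7 pairs. By cluster, 14 of 33 tested Hist1 genes and 3 of 3 Hist2 genes were positive. The differences between these subsets were not tested.

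Genes that work with histones were set beside them from lists of named genes. The 11 histone variant genes outside the clusters, among them H2afx with its stem-loop motif, summed to 2393 ± 174 CPM with adjudin and 2342 ± 258 CPM with DMSO, many times the sum of the clustered genes. Their median log2 fold change was 0.01, and H3f3b, which encodes the variant H3.3, had 699.5 ± 43.1 and 677.2 ± 41.2 CPM in Adjudin and DMSO libraries. H1f0, the linker histone of cells that have stopped dividing, had 326.3 ± 35.3 and 298.3 ± 34.6 CPM in Adjudin and DMSO libraries, was higher with adjudin in 6 of 7 pairs, and had an unadjusted p of 0.229 by edgeR, or 0.0452 with the block. Of the 11 genes for histone mRNA synthesis, 3′ end processing and decay, 5 were positive and 6 negative, with a median of −0.04. Slbp, the stem-loop binding protein, had a log2 fold change of 0.01 ± 0.07, and Npat, which activates histone gene transcription in S phase, 0.03 ± 0.07. Of 10 histone chaperone genes 9 were negative, with a median of −0.05, of 17 S phase genes 16 were negative, with a median of −0.08, and of 10 mitosis genes all 10 were negative, with a median of −0.13. The summed S phase level was nevertheless higher with adjudin in 5 of 7 pairs and the mitosis sum in 4 of 7. The lower sums were marked in pairs 3 and 4, where S phase genes summed to 1101 and 1058 CPM with adjudin, against 1385 and 1329 CPM with DMSO. Mitosis genes summed to 677 and 611 CPM with adjudin in those pairs, against 920 and 915 CPM with DMSO. None of the genes on these lists had an unadjusted p under 0.05 in the unblocked edgeR test, where 2.26% of all genes did. Among 9 RNAs without a poly(A) tail, only Rn7sk passed the filter, with 19.9 ± 6.28 and 17.1 ± 5.67 CPM in Adjudin and DMSO libraries and a log2 fold change of 0.20 ± 0.23; the other 8 were below 0.26 CPM in both groups.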

How the data were processed

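RNA-seq had been run on 14 libraries of P0 islets, 7 with adjudin and 7 with DMSO, grouped by the labels. The deposited values are whole-number counts per gene. Per the study's methods and the submitters' notes, the authors used HISAT2 2.0.5 on paired reads of 150 bases against GRCm38/mm10, then featureCounts 1.5.0-p3. Annotation release, strand setting and handling of multi-mapped reads were not given in the sources used here. Islets of several pups of either sex were pooled per sample, so SD and the p-values of fits without the replicate block measure the spread between pools. Those fits do not use the pairing. P-values of fits with the block measure how the within-pair differences spread from pair to pair.

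Genes were filtered with filterByExpr (minimum count 10), scaled with TMM and tested with edgeR 4.0.16 (robust quasi-likelihood F test, two-sided, treatment as the one term, R 4.3.3). CPM uses the library total, and SE is the fold change divided by the square root of F. Alternatives were a replicate block, DESeq2 1.42.0, limma-voom 3.58.1, other scalings and filters, and leaving out libraries or pairs. DESeq2 with the replicate block called 853 genes higher and 542 lower at an unadjusted p under 0.05, the same numbers as the study gives. The edgeR fits, with and without the block, were tested on simulated counts with known fold changes and no replicate effect. The other steps were not tested in this way. The labels put same-numbered libraries in 1 batch, so the numbers pair them; same-numbered deviations from group means correlated with a mean r of 0.25 across genes (−0.14 to 0.45), against −0.04 between other numbers. The members, gene lists and alternatives were chosen with earlier results of these data known. Named genes were the most abundant of each class, those with an unadjusted p under 0.05 with or without the block, the smallest p in each direction, and Hist1h1c, Hist1h2bc and Hist2h2be. Stem-loops were read from GENCODE M21 transcripts, whose coordinates equalled those deposited for all 70 genes. Counts alone bound what can be seen: 1 count in the shallowest library was 0.0378 CPM.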

Additional observations from a re-analysis of the deposited data

Results flagged for a closer look

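A single library stood far from the 6 others of its group in 2 of the 34 groups looked at, which were the 11 named genes and 6 sums in each treatment; chance alone flags about 1 group in 20. Both were DMSO replicate 1. Hist1h3c, the most abundant H3 gene, had 4.19 CPM there, against 2.42 CPM in the next highest DMSO library, and the gap was 0.657 of the group's range. The summed H3 genes had 10.7 CPM there, against 8.15 CPM in the next highest, a gap of 0.572 of the range, where the critical value is 0.568. Hist1h3c is part of that sum, so the flags share counts, and the Adjudin library of the same pair also held the highest Hist1h3c level of its group, 3.62 CPM.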

How the results depend on the processing

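None of the 39 tested histone genes had an adjusted p under 0.05 in any of the 32 settings run (edgeR, DESeq2 and limma-voom, with unadjusted calls given with the results). Unadjusted calls on the higher side numbered 3 and came to 1 with limma-voom and to 0 to 4 with a library or pair left out; on the lower side 3 came to 0 with a filter of at least 1 CPM in 7 libraries, which leaves those 3 genes untested, and to 1 to 4 with a library or pair left out. Over all genes, 1 had an adjusted p under 0.05, against 3 with DESeq2, 111 with DESeq2 and the replicate block, 0 with limma-voom, 0 with the edgeR replicate block (also without pair 5) and 0 to 1 with a library or pair left out. Genes at an unadjusted p under 0.05 numbered 424, against 827 with DESeq2, 1395 with DESeq2 and the replicate block, 2884 without a filter, 1055 with the replicate block, 1251 with the block and without pair 5, and 315 to 644 with a library or pair left out (644 without DMSO replicate 5). The causes were not tested. The block changed no adjusted call among histone genes.

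Named genes kept their sign in every setting in which they were tested, except those with a fold change near 0. Hist3h2a, at a log2 fold change of −0.02, gave 0.000864 without a filter and 0.0031 with the block and without pair 5, and −0.123 to 0.0641 with a library or pair left out. Hist1h3c, at 0.08, gave −0.0536 to 0.293 with a library or pair left out. The log2 difference of the summed histone level, 0.20, came to −0.0046 without the genes of at least 1000 exon bases and to −0.041 without the 6 most abundant, a choice made after the data were seen. For H1 it was 0.32 and came to −0.511 without the longer genes. That choice leaves only Hist1h1b, Hist1h1a and Hist1h1t, with 254, 124 and 12 counts of the 26179 in H1 genes. For H2B the log2 difference was 0.26 and came to −0.114 without the 6 most abundant. Scaling by TMM or by protein-coding counts moved no class sum by more than the spread of the pairs. Depth limits the rarer genes: those not tested had at most 134 counts over all 14 libraries.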
